A study of Mus musculus with 2 samples.

Results

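The autophagy machinery was examined as 48 genes of 24062 in the count tables, chosen by symbol from the core Atg genes, the Ulk kinases and the genes of the class III PI3-kinase, the LC3 and GABARAP proteins, cargo receptors and mitophagy. RNA was sequenced from cells labelled as haematopoietic progenitors of the C57BL6 mouse aorta at embryonic day 11, sorted as CD31+ KITint cells and then on Gata2Venus, a fluorescent reporter transgene for the transcription factor Gata2. One library came from Gata2Venus-negative cells, with a depth over genes of 10135400 counts, and one from Gata2Venus-positive cells, with 9715131. Strain, stage, tissue, the CD31+ KITint gate and the reporter line were shared by both groups, and the labels do not say how many embryos were pooled.

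Autophagy encloses parts of the cytoplasm in a double membrane and delivers them to the lysosome. A kinase complex around ULK1 starts the process, a lipid kinase marks the membrane with PI3P, lipid-transfer proteins let it grow, and a ubiquitin-like conjugation system attaches LC3 and GABARAP proteins, to which cargo receptors bind. In mice, autophagy genes such as Atg7 and Rb1cc1 are needed to maintain blood stem cells, and Bnip3l is needed to clear mitochondria from maturing red cells.

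With 1 library per group there was no replicate check and no p-value, and each comparison is of these libraries, not of the conditions. Levels are CPM, that is, counts scaled to the same library total, after TMM scaling, and ratios are negative over positive. The rule of size asked that the exact 95% interval of a gene's ratio lie wholly beyond 2-fold, and that the higher library hold 10 CPM and 50 counts of it or more. Intervals of levels, ratios and shares cover counting error only, and PCR copies of a molecule may count more than once. In sorted bulk samples, fewer cells of a type and less RNA per cell cannot be told apart.

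Atg101, Atg13 and Rb1cc1 of the initiation complex, Atg14 of the lipid kinase complex, and Wdr45 and Atg2b of membrane growth were between 2.38-fold and 4.44-fold higher in the Gata2Venus-negative library. Gabarap and Sqstm1, the most abundant genes of the pathway per kilobase, were not past the rule. The conjugation gene Atg16l1 and the receptor gene Optn had no read there. Of the 48 genes, 9 were past the rule as higher in Venus-negative cells, against a background of 12.6% of the 12544 genes with at least 20 counts. Past the rule as lower were 2 of the 48, against a background of 12.3%. The 9 were Atg101, Atg13, Rb1cc1, Ulk4, Atg14, Atg2b, Wdr45, Atg4d and Calcoco1, and the 2 were Atg16l1 and Optn. Taken in either direction, 22.9% of the autophagy genes were past the rule against 24.9% of all genes, so the total is near the background. The median log2 ratio was 0.35 over the 48 genes and −0.012 over all 12544. The rank-based interval of the median of the 48, −0.14 to 0.71, covers even and the median of all genes. It treats genes of 1 pair of libraries as independent, so it cannot decide on a shift. A shift of the pathway as a whole was not tested. All 48 had at least 20 counts over both libraries, and 43 reached 10 CPM and 50 counts in one of them, as did 10381 genes in all, of which 15.2% were past the rule as higher and 14.9% as lower. With the interval required to lie beyond 4-fold, Ulk4 alone remained higher (background 5.93%) and Atg16l1 and Optn remained lower (background 5.99%). An assumed coefficient of variation of 0.4 left the same 3 genes, against backgrounds of 5.11% and 5.44%.

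**Figure D1:**
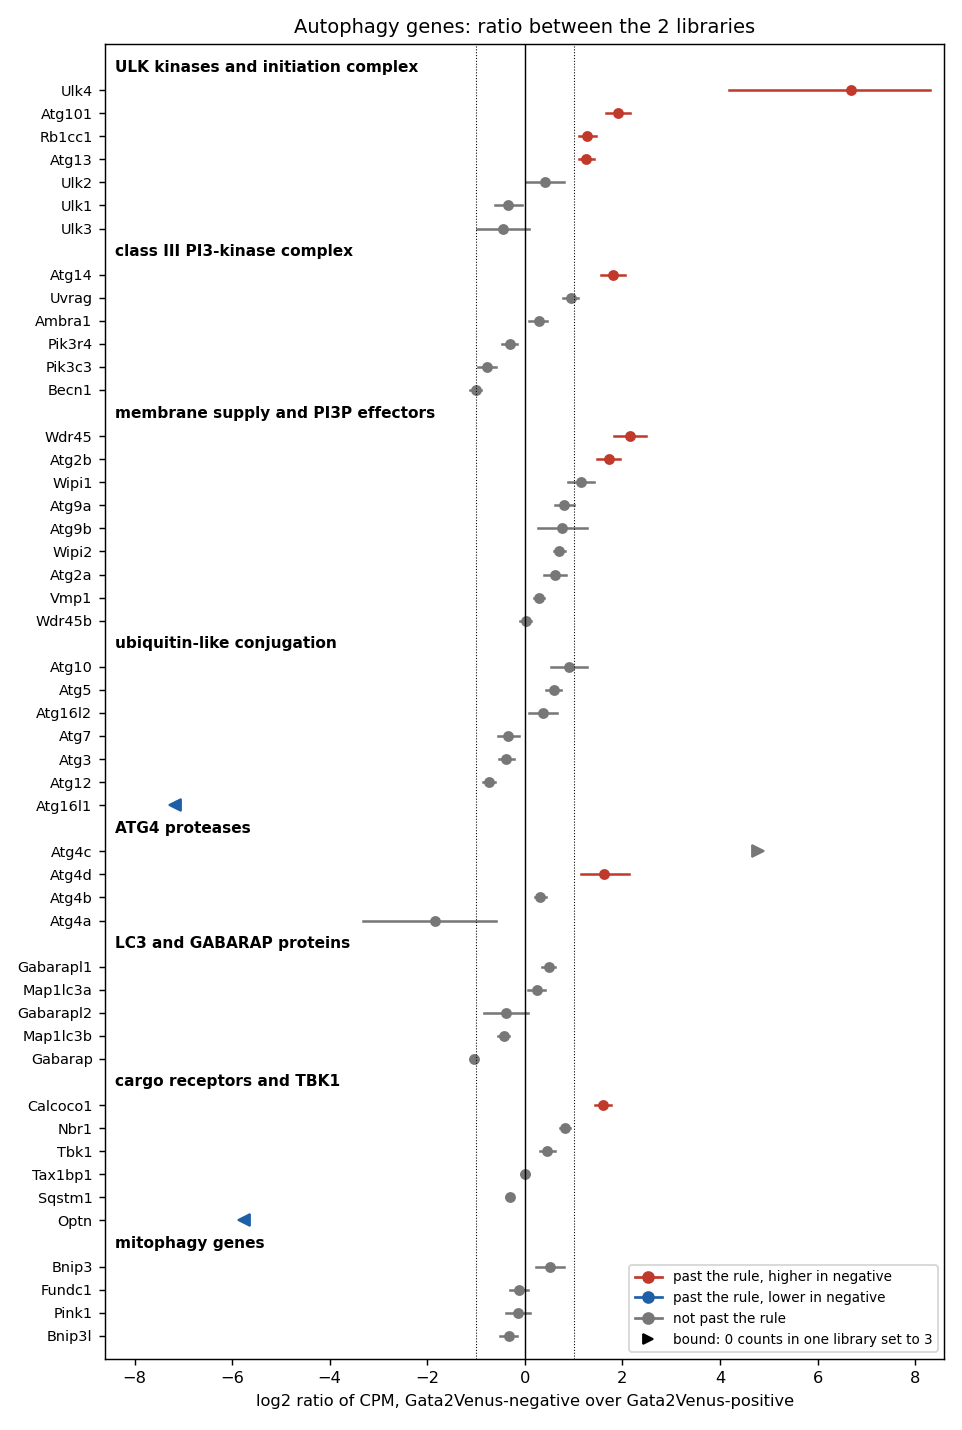
Log2 ratio of CPM (horizontal axis, negative over positive) of the 48 autophagy genes, grouped by role, with exact 95% counting intervals as lines; arrowheads are bounds for genes with 0 counts in one library, and dotted lines mark 2-fold. Atg101, Rb1cc1 and Atg13 sit together to the right of the 2-fold line while Ulk1, Ulk2 and Ulk3 lie around 0, and all 9 genes of membrane supply lie at or right of 0. Of all 12544 genes with at least 20 counts, 6218 had ratios above 0. The interval of Ulk4 runs on to 12.01, past the edge.

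Gata2, the gene behind the sort, had 141 counts in Venus-negative cells and 664 in Venus-positive cells, in the direction of the labels. The libraries also differed in their cell markers. Of all genes with at least 20 counts, 12.6% were past the rule as higher and 12.3% as lower. Of 10 endothelial markers 7 were past the rule as lower in Venus-negative cells, with a summed level of 2219 CPM in Venus-negative and 5019 CPM in Venus-positive cells. Of 10 macrophage markers 8 were lower, with sums of 239 CPM in Venus-negative and 1078 CPM in Venus-positive cells. Of 12 mesenchymal and smooth muscle markers 7 were higher, with sums of 7758 CPM in Venus-negative and 4792 CPM in Venus-positive cells. Much of that difference lay in Col3a1, with 3249 CPM in Venus-negative and 1310 CPM in Venus-positive cells. Dcn, Lum and Col1a2 had log2 ratios below 0, at −0.74, −0.11 and −0.13. Twist1 had 24 counts in Venus-negative and 0 in Venus-positive cells. Of 9 progenitor markers Gata2, Ptprc, Runx1 and Cdh5 were lower and Kit was higher, and Myb was at 0 in Venus-negative cells. Of 10 erythroid markers 0 were higher and 1, Gata1, was lower, with sums of 325 CPM in Venus-negative and 231 CPM in Venus-positive cells. The embryonic globin genes Hbb-y (1485 counts in Venus-negative and 812 in Venus-positive cells), Hbb-bh1 (1077 and 528) and Hba-x (825 and 331) were not past the rule, Gata1, Epor and Klf1 were at 0 in Venus-negative cells, and Slc4a1 and Hba-a1 were at 0 in both. The part of these cell type differences in the autophagy results was not tested.

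The initiation complex was divided between its kinases and its other subunits. Atg101 (chr15:101284272-101290945, mm10), which stabilises ATG13, had 710 counts in Venus-negative cells against 173 in Venus-positive cells, or 68.2 against 18.3 CPM. It was 3.73-fold higher in Venus-negative cells (log2 ratio 1.90, interval 1.66 to 2.15). Atg13 (chr2:91674618-91710576), the adaptor that binds ULK1, had 1236 counts in Venus-negative cells against 472 in Venus-positive cells, 2.38-fold higher (log2 ratio 1.25, interval 1.10 to 1.41). Rb1cc1 (chr1:6206197-6276648), the large scaffold of the complex, had 985 counts in Venus-negative cells against 368 in Venus-positive cells, 2.43-fold higher (log2 ratio 1.28, interval 1.11 to 1.46). These are the 3 subunits of the complex that carry no kinase activity.

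Neither kinase of the same complex was past the rule. Ulk1, the starting kinase, had 207 counts in Venus-negative cells and 238 in Venus-positive cells (log2 ratio −0.34, interval −0.62 to −0.065). Ulk2, its closest paralog, had 135 counts in Venus-negative cells and 92 in Venus-positive cells (log2 ratio 0.41, interval 0.022 to 0.81). Ulk3, a kinase also linked to Hedgehog signalling, had 55 and 68 counts in Venus-negative and Venus-positive cells and did not reach 10 CPM in either. Ulk4, a related protein regarded as a pseudokinase and not a known part of the complex, had 114 counts in Venus-negative cells and 1 in Venus-positive cells (log2 ratio 6.69, interval 4.19 to 12.01). Summed over the 7 genes of this group the level was 331 CPM in Venus-negative and 149 CPM in Venus-positive cells. Per kilobase of transcript, Atg101 was the most abundant of them, at 53.7 CPM per kilobase in Venus-negative and 14.4 in Venus-positive cells, and Ulk1 was at 3.81 in Venus-negative and 4.83 in Venus-positive cells.

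In the class III PI3-kinase complex 1 of the 6 genes (16.7%) was past the rule as higher, beside 12.6% of all genes. Atg14 (chr14:47540893-47570649), the subunit that directs the kinase to sites of autophagosome formation, had 707 counts in Venus-negative cells against 183 in Venus-positive cells and was 3.51-fold higher (log2 ratio 1.81, interval 1.57 to 2.05). Uvrag, which takes the place of ATG14 in the endosomal form of the complex, had 1046 counts in Venus-negative cells and 496 in Venus-positive cells (log2 ratio 0.94, interval 0.78 to 1.09). Becn1 (Beclin 1), the subunit both forms share, had 951 counts in Venus-negative cells and 1745 in Venus-positive cells, 2.02-fold lower in Venus-negative cells (log2 ratio −1.01, interval −1.13 to −0.90). Becn1 was not past the rule, because its interval reached inside 2-fold.

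The other members of this complex were closer to even. The lipid kinase gene Pik3c3 had 38.0 CPM in Venus-negative and 65.1 CPM in Venus-positive cells (log2 ratio −0.78), and Pik3r4, its regulatory subunit, had 65.8 and 81.3 CPM in Venus-negative and Venus-positive cells (log2 ratio −0.31). Ambra1, which links Beclin 1 to regulation by phosphorylation and ubiquitin, had 54.2 CPM in Venus-negative and 44.7 CPM in Venus-positive cells. The summed level of the 6 genes was 418 CPM in Venus-negative and 447 CPM in Venus-positive cells.

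All 9 genes of membrane supply and PI3P binding had log2 ratios above 0, from 0.02 for Wdr45b to 2.15 for Wdr45, as had 6218 of all 12544 genes. Of the 9, 2 (22.2%) were past the rule as higher, beside 12.6% of all genes. A shift of this group was not tested. Wdr45 (chrX:7714333-7728206), which encodes the PI3P-binding protein WIPI4, had 464 counts in Venus-negative cells against 95 in Venus-positive cells, 4.44-fold higher (interval of the log2 ratio 1.83 to 2.48). Atg2b (chr12:105616136-105685211), a lipid-transfer protein that works with WIPI proteins, had 666 counts in Venus-negative cells against 184 in Venus-positive cells, 3.29-fold higher (log2 ratio 1.72, interval 1.48 to 1.96). Its paralog Atg2a had 457 counts in Venus-negative cells and 270 in Venus-positive cells (log2 ratio 0.62), so that the libraries differed in which paralog led.

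Wipi1 had 408 counts in Venus-negative cells and 167 in Venus-positive cells (log2 ratio 1.15, interval 0.89 to 1.42) and missed the rule by its interval. Wipi2, which recruits ATG16L1 to the growing membrane, had 194 CPM in Venus-negative and 119 CPM in Venus-positive cells (log2 ratio 0.71). The scramblase gene Atg9a had 60.8 CPM in Venus-negative and 34.8 CPM in Venus-positive cells (log2 ratio 0.81), and the less abundant Atg9b had 101 counts in Venus-negative and 54 in Venus-positive cells. Vmp1, a scramblase of the endoplasmic reticulum, had 148 CPM in Venus-negative and 121 CPM in Venus-positive cells, and Wdr45b (WIPI3) had 126 and 125 CPM in Venus-negative and Venus-positive cells.

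**Figure D2:**
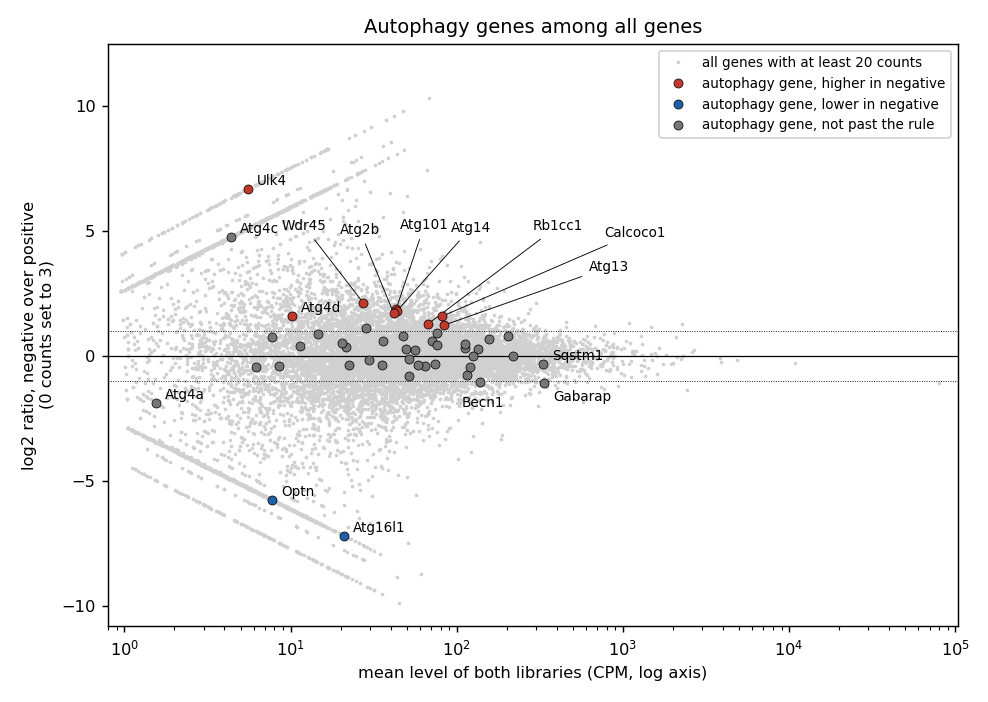
Mean level of both libraries (CPM, log axis) against the log2 ratio of negative over positive, for all genes with at least 20 counts (grey) and the 48 autophagy genes (coloured by call), with 0 counts set to 3. The cloud of all genes narrows as the level rises, and the autophagy genes past the rule lie under 100 CPM, with Ulk4, Atg4c, Optn and Atg16l1 on the outer lines formed by genes at or near 0 in one library.

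How often genes were past the rule depended on their level, and the autophagy genes were read against genes of their own level. From a mean of 20 to below 50 CPM, 4 of 14 autophagy genes were higher in Venus-negative cells and 1 was lower, beside 15.7% and 16.0% of all genes at that level. From 50 to below 100 CPM, 3 of 12 were higher and 0 lower, beside 10.5% and 8.36% of all genes. From 100 to below 500 CPM, 0 of 12 were past the rule, beside 5.77% higher and 4.68% lower of all genes. Below 20 CPM, 2 of 10 were higher and 1 lower, beside 15.3% and 15.8%. The spread of the log2 ratio over all genes above 3 counts in each library, estimated from the interquartile range as an SD, was 1.15 from 20 to below 50 CPM and 0.84 from 50 to below 100 CPM. The log2 ratios of Atg13 (1.25), Rb1cc1 (1.28) and Calcoco1 (1.60), with means in the second of these ranges, lie between 1 and 2 such SDs from 0. So do those of Atg101 (1.90), Atg14 (1.81), Atg2b (1.72) and Wdr45 (2.15), with means in the first range.

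The conjugation genes did not move together. Atg16l1 (chr1:87755870-87792428), the partner that brings the ATG12-ATG5 conjugate to the membrane, had 0 counts in Venus-negative cells and 395 in Venus-positive cells, at least 145-fold lower in Venus-negative cells with the 0 replaced by 3 counts. The exact interval, which also holds the error of the 395 counts, ends nearer to even, at a log2 ratio of −6.87. The 3 counts stand for 0.288 CPM, and the exact upper limit of a count of 0 there is 0.354 CPM, against 41.8 CPM in Venus-positive cells. Its paralog Atg16l2 had 252 counts in Venus-negative cells and 177 in Venus-positive cells (log2 ratio 0.37, interval 0.088 to 0.66). Of these paralogs, the negative library thus held reads of Atg16l2 alone. In mice Atg16l2 is reported to be dispensable for autophagy. A count of 0 in 1 library does not show that the cells lacked Atg16l1, and autophagy itself was not measured.

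The enzymes of the same system were present in both libraries. Atg5 had 85.4 CPM in Venus-negative and 56.5 CPM in Venus-positive cells (log2 ratio 0.60, interval 0.44 to 0.75), and Atg12, the ubiquitin-like protein joined to it, had 86.2 and 143 CPM in Venus-negative and Venus-positive cells (log2 ratio −0.73). Atg7, the activating enzyme, had 31.6 CPM in Venus-negative and 39.9 CPM in Venus-positive cells (log2 ratio −0.34, interval −0.55 to −0.12). Atg3, which transfers LC3 to lipid, had 55.9 CPM in Venus-negative and 72.6 CPM in Venus-positive cells, and Atg10, which transfers ATG12, had 197 counts in Venus-negative and 96 in Venus-positive cells (log2 ratio 0.90). None of these 5 was past the rule.

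Among the ATG4 proteases, which trim LC3 and GABARAP before conjugation and release them afterwards, Atg4b led in both libraries with 124 CPM in Venus-negative and 99.5 CPM in Venus-positive cells (log2 ratio 0.32). Atg4d (chr9:21265293-21277772) had 160 counts in Venus-negative cells against 47 in Venus-positive cells, 3.09-fold higher (log2 ratio 1.63, interval 1.15 to 2.13). Atg4c had 91 counts in Venus-negative cells and 0 in Venus-positive cells, at least 27.6-fold higher on the same floor, with an exact interval of the log2 ratio from 4.46. At 8.74 CPM it did not reach the level the rule asks for. Atg4a had 7 counts in Venus-negative and 23 in Venus-positive cells, and its transcript is 99.3% identical over 2115 bases to the copy Atg4a-ps, so its reads may have been dropped or divided in counting.

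The LC3 and GABARAP proteins, the ubiquitin-like proteins that coat the autophagosome, included the most abundant gene of the pathway and had no member past the rule. Gabarap (chr11:69991143-69994951) had 2281 counts in Venus-negative cells and 4296 in Venus-positive cells, or 219 and 454 CPM in Venus-negative and Venus-positive cells. It was 2.07-fold lower in Venus-negative cells, with an interval of the log2 ratio from −1.13 to −0.98 that ended just inside 2-fold. Gabarapl1 had 130 CPM in Venus-negative and 92.8 CPM in Venus-positive cells (log2 ratio 0.49, interval 0.36 to 0.61). Gabarapl2 had 77 counts in Venus-negative and 91 in Venus-positive cells, and it has processed pseudogenes up to 99.4% identical over 349 bases of its transcript.

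Both LC3 genes were close to even. Map1lc3b, the LC3 form most used as a marker of autophagosomes, had 102 CPM in Venus-negative and 138 CPM in Venus-positive cells (log2 ratio −0.43, interval −0.55 to −0.32). Map1lc3a had 60.4 CPM in Venus-negative and 51.1 CPM in Venus-positive cells (log2 ratio 0.24, interval 0.069 to 0.42). Summed over the 5 genes, the level was 520 CPM in Venus-negative and 746 CPM in Venus-positive cells, a difference that lay mostly in Gabarap. Per kilobase of transcript, Gabarap stood at 162 CPM per kilobase in Venus-negative and 336 in Venus-positive cells and was the highest of the 48 genes on the mean of both.

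Of the 6 genes for cargo receptors and their kinase, Calcoco1 was higher, Optn was lower, and the others were not past the rule. That is 16.7% in each direction, beside 12.6% higher and 12.3% lower of all genes. Calcoco1 (chr15:102706777-102722178), a receptor for endoplasmic reticulum and Golgi membranes, had 1273 counts in Venus-negative cells against 382 in Venus-positive cells, 3.03-fold higher (log2 ratio 1.60, interval 1.43 to 1.77). Optn (chr2:5020642-5064051), a receptor for damaged mitochondria and bacteria, had 0 counts in Venus-negative cells and 147 in Venus-positive cells, at least 53.9-fold lower in Venus-negative cells on the same floor of 3 counts, with an exact interval of the log2 ratio that ends at −5.44. Sqstm1 (p62), the classical receptor for ubiquitinated cargo, had 295 CPM in Venus-negative and 366 CPM in Venus-positive cells (log2 ratio −0.31, interval −0.38 to −0.24).

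Nbr1, a receptor that acts with p62, had 261 CPM in Venus-negative and 147 CPM in Venus-positive cells, 1.77-fold higher and not past the rule (log2 ratio 0.83). Tax1bp1, another ubiquitin-binding receptor, had 218 CPM in each library (log2 ratio −0.002, interval −0.089 to 0.085). Tbk1, the kinase that phosphorylates optineurin and p62, had 88.6 CPM in Venus-negative and 64.4 CPM in Venus-positive cells (log2 ratio 0.46).

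The 4 genes grouped under mitophagy were the group with the narrowest range, with log2 ratios from −0.33 to 0.51 and no gene past the rule. Optn, a receptor for damaged mitochondria that was past the rule as lower, was grouped with the cargo receptors and is not among them. Bnip3l, a receptor on the mitochondrial surface, had 542 counts in Venus-negative and 621 in Venus-positive cells (log2 ratio −0.33, interval −0.50 to −0.17). Its paralog Bnip3, a hypoxia-responsive gene, had 248 counts in Venus-negative and 158 in Venus-positive cells (log2 ratio 0.51, interval 0.22 to 0.81). Fundc1, another surface receptor, had 514 and 508 counts in Venus-negative and Venus-positive cells, and the kinase gene Pink1 had 293 in each. Both Bnip3 and Bnip3l have near-identical copies elsewhere in the annotation, 98.9% identical over 564 bases for the pseudogene Gm16439 and 99.2% over 663 bases for Bnip3l-ps, so their counts are uncertain.

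Several families divided their counts between paralogs differently in the libraries. In the GABARAP family, Gabarap held 61.4% of 3714 counts in Venus-negative cells (exact Clopper-Pearson interval 59.8% to 63.0%) and 81.6% of 5265 in Venus-positive cells (80.5% to 82.6%). Gabarapl1 held 36.5% in Venus-negative and 16.7% in Venus-positive cells. Of the ATG2 counts, Atg2b held 59.3% in Venus-negative cells (56.4% to 62.2%) and 40.5% in Venus-positive cells (36.0% to 45.2%). Of the counts for WIPI3 and WIPI4, Wdr45 held 26.1% in Venus-negative cells (24.0% to 28.2%) and 7.46% in Venus-positive cells (6.07% to 9.04%).

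Other families shifted less. Map1lc3a held 37.1% of the LC3 counts in Venus-negative cells (34.8% to 39.5%) and 27.0% in Venus-positive cells (24.9% to 29.1%). Ulk2 held 39.5% of the counts for Ulk1 and Ulk2 in Venus-negative cells (34.3% to 44.9%) and 27.9% in Venus-positive cells (23.1% to 33.1%). Bnip3 held 31.4% of its family's counts in Venus-negative cells (28.2% to 34.8%) and 20.3% in Venus-positive cells (17.5% to 23.3%). Atg9b held 13.8% of the ATG9 counts in Venus-negative cells (11.3% to 16.5%) and 14.1% in Venus-positive cells (10.8% to 18.0%), and these intervals overlap. Wipi1 held 16.8% of the counts for Wipi1 and Wipi2 in Venus-negative cells and 12.9% in Venus-positive cells. Of the ATG4 counts Atg4b held 83.4% in Venus-negative and 93.1% in Venus-positive cells.

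**Figure D3:**
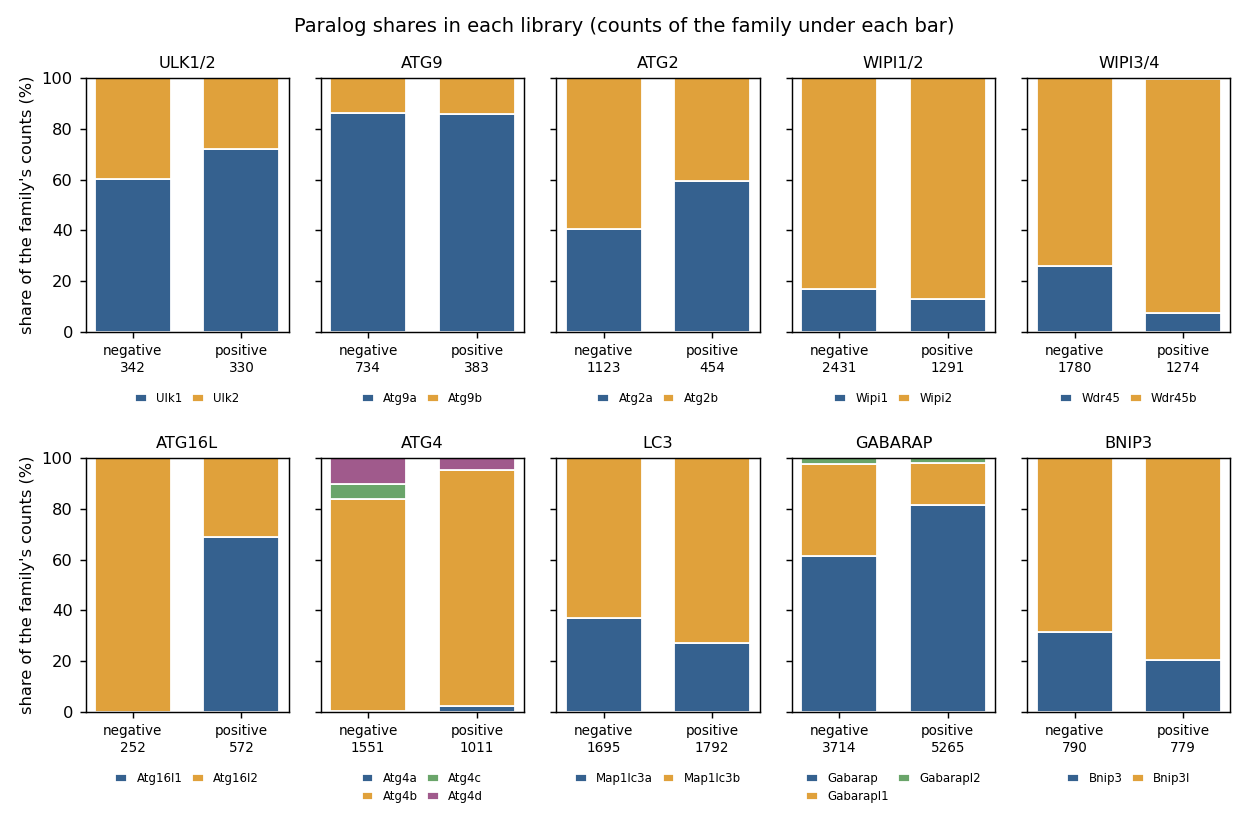
Share of each family's counts taken by each paralog (vertical axis, %), with the Gata2Venus-negative library at the left and the Gata2Venus-positive library at the right of each panel and the family's counts under each bar. The ATG16L panel shows Atg16l2 alone in Venus-negative cells, the GABARAP, ATG2 and WIPI3/4 panels show a different division in each library, and the ATG9 panel shows Atg9a at 86.2% and 85.9%.

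Genes at or near 0 in one library were common in these data. With at least 90 counts in one library and at most 3 in the other, a limit set after the counts of Atg4c had been seen, there were 4 autophagy genes of the 46 that reached 90 counts (8.70%). Ulk4 and Atg4c were seen in Venus-negative cells, and Atg16l1 and Optn in Venus-positive cells. Among all genes 875 of 10581 (8.27%) met the same limits. All 4 autophagy genes had fewer than 400 counts in the higher library. Among genes from 90 to below 400 counts there, 4 of 14 autophagy genes (28.6%) and 810 of 4115 of all genes (19.7%) met them. When genes with 3 counts or fewer on either side were dropped, 8 autophagy genes were past the rule as higher in Venus-negative cells and 0 as lower, beside 1200 and 1131 of all genes.

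Some of these genes share exons with neighbours. In the GENCODE annotation of mm10, 19 of the 48 genes share exon bases with another annotated gene. Since the use of strand is not given in the sources used here, reads of such stretches cannot be told apart or may have been left out as ambiguous. Of the genes past the rule, Ulk4 shares 759 bases with Ctnnb1, Atg4d shares 1405 with Kri1, Wdr45 shares 818 with Gm45208, Rb1cc1 shares 558 with an antisense gene, Atg2b shares 383 with Gskip, Atg14 shares 239 with an antisense gene and Optn shares 73 with one. Atg101, Atg13, Calcoco1 and Atg16l1 share none. The neighbours of Ulk4, Atg4d and Atg2b are in the count tables, and those of Wdr45, Rb1cc1, Atg14 and Optn are not. Gm45208 lies on the same strand as Wdr45, so no strand setting would separate their reads. Becn1, which was not past the rule, shares 3104 bases with Cntd1.

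Genes around the core pathway were examined in lists. In the lists for fusion, receptors and control together, 58 genes had at least 20 counts. Of these 8.62% were higher in Venus-negative cells and 12.1% lower, beside 12.6% and 12.3% of all genes. Of 17 genes for maturation and fusion of autophagosomes, 14 had at least 20 counts. Of these 14, 0 were past the rule in either direction, beside 24.9% of all genes with at least 20 counts. The median log2 ratio of the 14 with at least 20 counts was 0.33. The most abundant per kilobase was Vamp8, a SNARE protein of the fusion step, with 583 counts in Venus-negative and 1038 in Venus-positive cells (log2 ratio −0.97, interval −1.12 to −0.82). The syntaxin of that step, Stx17, had 257 counts in Venus-negative and 224 in Venus-positive cells.

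Of 22 other receptors and membrane factors, 3 were higher and 2 lower in Venus-negative cells, with a median of 0.052 over the 19 with at least 20 counts. Of those 19, 15.8% were higher and 10.5% lower, beside 12.6% and 12.3% of all genes. Zfyve1, whose protein marks the PI3P-rich membrane from which autophagosomes grow, had 588 counts in Venus-negative cells against 68 in Venus-positive cells, 7.86-fold higher (log2 ratio 2.97, interval 2.61 to 3.36). Trp53inp2, which binds LC3 and GABARAP proteins, had 844 counts in Venus-negative cells against 314 in Venus-positive cells (log2 ratio 1.29), and Tecpr2, another LC3-binding protein gene, had 198 against 2. Tex264, a receptor for endoplasmic reticulum, had 201 counts in Venus-negative cells against 531 in Venus-positive cells (log2 ratio −1.54, interval −1.78 to −1.30), and Trp53inp1 had 3 against 144. Phb2, a mitochondrial protein and the most abundant of the list per kilobase, had 423 CPM in Venus-negative and 428 CPM in Venus-positive cells.

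Of 27 genes for nutrient and transcriptional control, 25 had at least 20 counts, with a median log2 ratio of −0.36. Of these 25, 2 were past the rule as higher in Venus-negative cells, beside 12.6% of all genes. Past the rule as lower were 5 of the 25, beside 12.3% of all genes. A shift of this list was not tested. Tfe3, a transcription factor that induces lysosomal and autophagy genes, had 460 counts in Venus-negative cells against 114 in Venus-positive cells, 3.67-fold higher (log2 ratio 1.87, interval 1.58 to 2.18). Its relative Tfeb had 0 counts in Venus-negative and 66 in Venus-positive cells, at 6.98 CPM below the level the rule asks for, and Mitf, of the same family, had 0 in both. The amino acid sensing GTPase gene Rragd had 1039 counts in Venus-negative cells against 11 in Venus-positive cells (log2 ratio 6.42, interval 5.58 to 7.43), while its paralog Rragc had 152 against 616 (log2 ratio −2.16, interval −2.42 to −1.90).

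The other genes of that list past the rule were lower in Venus-negative cells. Rptor, the mTORC1 subunit that recruits substrates, had 367 counts in Venus-negative cells against 1008 in Venus-positive cells (log2 ratio −1.60, interval −1.77 to −1.42). Foxo1, a transcription factor inhibited by insulin signalling, had 212 against 690 (log2 ratio −1.84). Prkaa1, a catalytic subunit of the energy-sensing kinase AMPK, had 82 counts in Venus-negative cells against 327 in Venus-positive cells (log2 ratio −2.13), and the stress protein gene Sesn3 had 59 against 165 (log2 ratio −1.62). Rraga was the most abundant of the list per kilobase, with 158 CPM in Venus-negative and 178 CPM in Venus-positive cells. Of 18 hypoxia-induced genes, examined because Bnip3 is one, Kdm3a (2.82-fold) and Hk2 (3.24-fold) were higher and Egln3 (log2 ratio −4.76) was lower. That is 11.1% higher and 5.56% lower, beside 12.6% and 12.3% of all genes. The median of the 18 was −0.048, and the most abundant, Ldha, had 811 CPM in Venus-negative and 1425 CPM in Venus-positive cells.

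**Figure D4:**
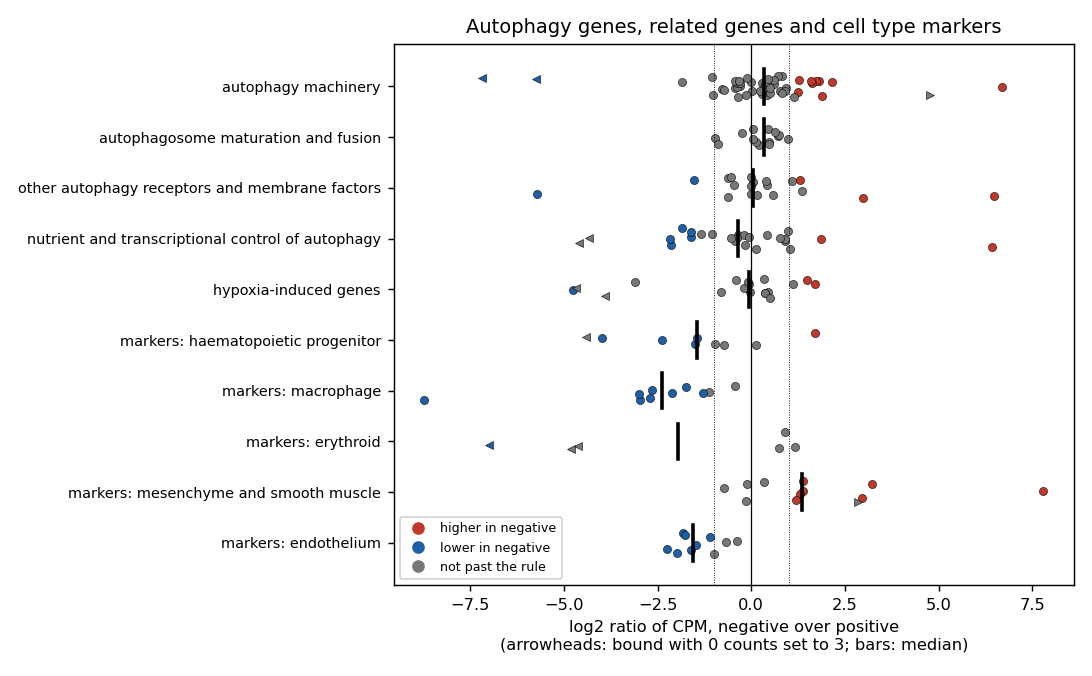
Log2 ratio of CPM (horizontal axis, negative over positive) for each gene with at least 20 counts in the autophagy machinery, 4 lists of related genes and 5 lists of cell type markers, with medians as bars and arrowheads for bounds. The medians of the autophagy genes and the fusion genes lie slightly right of 0 (0.35 and 0.33), that of the control genes slightly left (−0.36). The rank-based interval of the autophagy median, −0.14 to 0.71, covers 0 and treats the genes as independent. The macrophage and endothelial markers lie mostly left of the 2-fold line.

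TFE3 and TFEB bind the E-box CACGTG, so the windows around gene starts were searched for these letters, which read the same on both strands. RefSeq promoter windows (GRCm38.p6, 250 bases before to 50 after the start) were matched for 40 of the 48 genes. The E-box stood in the windows of 6 of them (15.0%), against 8.09% of all 27025 genes with a window. The sets are unlike, since the 27025 were not limited to genes with counts here and the autophagy genes all had at least 20. The longer TCACGTG, searched on both strands and overlapping the E-box, stood in 4, against 4.29% of all. The 6 genes were Atg14, Atg3, Atg5, Atg7, Bnip3 and Tbk1, of which Atg14 was past the rule, and in Atg14 the letters lie across the RefSeq start. A match describes these letters and is not evidence of binding. For Atg7 and Atg14 the RefSeq start of the window lies inside the longer GENCODE gene, so these are windows of internal starts. Stretches of 80 bases before the RefSeq start are shown for Atg5, Atg7 (intronic in the GENCODE gene) and Bnip3, where no annotated exon overlaps, each on the strand of its gene with the E-box in capitals. The place of the box differs, at 14, 132 and 108 bases before the RefSeq start.
Atg5, chr10:44268259-44268338, plus strand: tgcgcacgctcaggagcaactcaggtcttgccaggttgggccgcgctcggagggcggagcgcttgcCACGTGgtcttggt
Atg7, chr6:114670927-114671006, plus strand: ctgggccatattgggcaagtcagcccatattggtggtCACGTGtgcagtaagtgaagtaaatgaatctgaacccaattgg
Bnip3, chr7:138909572-138909651, minus strand: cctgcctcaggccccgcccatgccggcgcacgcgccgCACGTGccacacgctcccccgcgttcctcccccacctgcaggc
The log2 ratios of the 6 genes with an E-box lay on both sides of even. They were 1.81 for Atg14, 0.60 for Atg5, 0.51 for Bnip3, 0.46 for Tbk1, −0.34 for Atg7 and −0.38 for Atg3. Tfe3 itself had 1.87, and an effect of TFE3 on these genes was not tested. In Bnip3 the E-box holds the core ACGTG, the letters that hypoxia-inducible factors bind. The core was found on either strand in the windows of 42.5% of the 40 autophagy genes. Among the 27025 genes, not limited to those with counts here, the share was 21.8%.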

How the data were processed

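RNA of 2 sorted populations was sequenced, 1 library each. The RNA was extracted with the mirVana kit and amplified by SMARTER, per the labels' protocols. TopHat, Cufflinks and HTSeq with mm10 are named per the submitters' processing notes, without versions, and neither annotation nor strand setting is given in the sources used here. The deposited values are raw counts per gene symbol. The 5 rows for no gene were left out, of which alignments that are not unique held 45.5% of the Venus-negative and 48.2% of the Venus-positive counts.

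Counts were scaled by TMM (factors 1.027 and 0.974; edgeR 4.0.16, R 4.3.3). Ratio intervals are exact (Clopper-Pearson, scipy 1.17.1). For 0 counts in one library, folds were computed with 3 counts, or 0.288 CPM for Venus-negative and 0.317 CPM for Venus-positive cells. All 48 genes matched GENCODE vM21 by symbol. Levels per kilobase used the longest principal transcript. Copies were sought by BLAST 2.17.0 (at least 95% identity over 200 bases).

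The genes, lists and rule were chosen with earlier results of these data known. Every gene past the rule, the most abundant of each list, the paralog families and a few core genes were named in full. Protein sequences were not used here. Alternatives were other scalings (DESeq2 1.42.0 among them), filters, thresholds and an assumed spread between libraries.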

Additional observations from a re-analysis of the deposited data

How the results depend on the processing

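The 11 calls among the autophagy genes were the same under each of the other scalings. The median of 0.35 stayed between 0.13 and 0.42 under the alternatives tried. These lie within its rank-based interval of −0.14 to 0.71, which covers even and treats the genes as independent. An interval beyond 4-fold left 1 gene higher in Venus-negative cells (Ulk4) and 2 lower (744 and 751 of all genes), and an assumed library-to-library coefficient of variation of 0.4 left 1 and 2 (641 and 683 of all genes), so the calls of Atg101, Atg13, Rb1cc1, Atg14, Atg2b, Wdr45, Atg4d and Calcoco1 hold for counting error alone. A filter of 50 CPM left 6 higher and 0 lower (629 and 545 of all genes). With genes of 3 counts or fewer on either side dropped, 8 of 44 were higher and 0 lower (1200 and 1131 of 10581 genes). A 2-fold ratio without the interval gave 10 higher, adding Wipi1, and 4 lower, adding Becn1 and Gabarap (1984 and 1928 of the 12544 genes). With no filter 10 were higher, adding Atg4c, and 2 lower (2310 and 2503 of all 24062 genes, against 1582 and 1545 with the filter). Per kilobase of transcript, Map1lc3a held 57.3% of the LC3 level in Venus-negative and 45.7% in Venus-positive cells, so which LC3 gene leads depends on the scale. No paired analysis was possible because each group held 1 library, and for the same reason no replicate could be left out.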
